A study of Mus musculus with 72 samples.

Results

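Expression of 33 genes of glycolysis and of the HIF1 response was followed in mouse OT-I CD8+ T cells. The genes were taken by name, and not by any measured value, from the GENCODE M25 symbols of the count table, where all 33 were found among 55487 genes. They fall into 4 transporters of glucose and lactate (Slc2a1, Slc2a3, Slc16a1, Slc16a3), 9 genes of the first steps of glycolysis (Hk1, Hk2, Gpi1, Pfkl, Pfkm, Pfkp, Pfkfb3, Aldoa, Aldoc), 6 of its later steps (Tpi1, Gapdh, Pgk1, Pgam1, Eno1, Pkm) and 3 that act on pyruvate (Ldha, Ldhb, Pdk1). A further 3 encode HIF1 alpha and oxygen-sensing hydroxylases (Hif1a, Egln1, Egln3), 7 are HIF1 targets outside glycolysis (Vegfa, Bnip3, Ankrd37, P4ha1, Ak4, Ndrg1, Higd1a), and 1 is the glucose-responsive gene Txnip. All 33 passed the filter on low counts in every comparison.

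RNA was sequenced from 13 groups of 4 libraries, lettered A to D. OT-I mice carry a transgenic T cell receptor for the ovalbumin peptide SIINFEKL, and their splenocytes, after lysis of red cells, were stimulated with this peptide at 10 ng/mL together with recombinant human IL-2 at 100 IU/mL. The stimulated cultures received the glutaminase inhibitor CB-839 at 1 µM, the glutamine analogue DON at 1 µM, which blocks many enzymes that use glutamine, complete RPMI medium without glutamine (NoQ), or vehicle (CTL), and were taken at 4, 24 and 48 h; 1 further group was unstimulated. The medium of the vehicle, CB-839 and DON cultures contained glutamine. The labels list a single vehicle group per time although the protocol names DMSO as the vehicle of CB-839 and PBS as that of DON, and they leave unstated whether libraries A to D are separate mice or separate cultures. The p-values therefore measure the spread between these libraries, which may be technical. At 48 h, 20 CUT&RUN samples profiled the histone marks H3K27ac and H3K27me3, with 2 replicates per mark and condition, and IgG, with 1 per condition.

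Glycolysis splits glucose into pyruvate, which lactate dehydrogenase converts to lactate and monocarboxylate transporters carry out of the cell. HIF1 is a transcription factor whose alpha subunit is hydroxylated and destroyed in the presence of oxygen. It binds a short core sequence in the promoters of glycolytic and hypoxia genes, and in activated T cells it also accumulates after receptor stimulation. Activated CD8+ T cells are known for a switch to rapid glycolysis, and glutamine is their other main carbon and nitrogen source.

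The sequences upstream of 5 members with large changes are shown as examples from a search of member promoters for the HIF1 binding core, ACGTG. Each runs 5′ to 3′ over the 250 bases before the RefSeq start of the gene on build GRCm38.p6, the same assembly as mm10, and capitals mark ACGTG or its reverse complement CACGT. Slc16a3 (chr11:120948817-120949066, plus strand), Bnip3 (chr7:138909507-138909756, minus strand) and Hk2 (chr6:82774455-82774704, minus strand) hold 2 matches each, Egln3 (chr12:54203875-54204124, minus strand) holds 1 and Vegfa (chr17:46032378-46032627, minus strand) holds 0. The 2 matches of Bnip3 overlap on opposite strands and together form the E-box CACGTG. Ak4, Tpi1, Pfkl, Aldoc and Txnip, which also had large changes, hold 0 matches and are not shown.
Slc16a3: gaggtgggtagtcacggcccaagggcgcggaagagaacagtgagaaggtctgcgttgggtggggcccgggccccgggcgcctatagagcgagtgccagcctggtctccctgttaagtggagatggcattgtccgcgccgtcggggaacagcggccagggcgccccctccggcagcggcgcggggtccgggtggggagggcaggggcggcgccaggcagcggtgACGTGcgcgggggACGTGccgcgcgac
Bnip3: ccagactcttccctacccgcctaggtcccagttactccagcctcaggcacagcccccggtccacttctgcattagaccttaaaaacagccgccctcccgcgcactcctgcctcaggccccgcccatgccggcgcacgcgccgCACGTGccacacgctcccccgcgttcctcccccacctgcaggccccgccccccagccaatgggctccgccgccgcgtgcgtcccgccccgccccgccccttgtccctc
Hk2: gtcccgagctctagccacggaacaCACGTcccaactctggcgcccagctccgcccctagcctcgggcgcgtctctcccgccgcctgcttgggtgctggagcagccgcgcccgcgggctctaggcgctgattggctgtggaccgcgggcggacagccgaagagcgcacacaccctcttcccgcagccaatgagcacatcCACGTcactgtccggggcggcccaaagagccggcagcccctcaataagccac
Egln3: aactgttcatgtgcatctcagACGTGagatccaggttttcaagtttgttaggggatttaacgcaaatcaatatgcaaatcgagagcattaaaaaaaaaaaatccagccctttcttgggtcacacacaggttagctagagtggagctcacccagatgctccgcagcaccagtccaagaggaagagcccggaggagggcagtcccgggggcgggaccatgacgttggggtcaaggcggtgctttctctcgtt
Vegfa: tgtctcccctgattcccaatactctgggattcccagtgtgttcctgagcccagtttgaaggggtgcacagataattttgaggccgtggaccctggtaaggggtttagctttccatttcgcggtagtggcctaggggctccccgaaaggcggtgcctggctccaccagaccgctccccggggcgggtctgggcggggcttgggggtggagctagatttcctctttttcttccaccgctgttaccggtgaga
RefSeq promoters were matched for 31 members, and Slc2a3 and Ndrg1 are named only. ACGTG on either strand was present in 15 of the 31 member promoters (48.4%) and in 22% of the 9957 promoters of the table. Since the members were listed by name as glycolysis and HIF1 target genes, a higher share could be foreseen. The related core GCGTG was present in 17 member promoters (54.8%) and in 46% of all, and the E-box CACGTG, part of whose matches overlap those of ACGTG, in 5 (16.1%) and in 8.39% of all. These are matches of letters and not measured binding, and some RefSeq starts lie far from the start of the gene in the count table. Of the 15 promoters with ACGTG, that of Hif1a lies 6492 bases from it, that of Ankrd37 5857, that of Ldha 4329 and that of Slc16a3 587, and the others lie within 148 bases.

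Libraries held 25.627 to 51.005 M counts over 22061 to 32295 detected genes. Values below are counts per M counts (CPM) scaled by TMM over the 52 libraries, folds are log2 with their standard errors, and calls are at an adjusted p of 0.05 in edgeR's quasi-likelihood test, adjusted over all genes tested. Each of 10 CD8 T cell markers was detected in every group, with a summed share of 0.258% to 0.643% of counts. Markers of other splenocytes were present too: the summed share of 10 B cell markers was 0.149% to 0.176% in unstimulated libraries, 0.167% to 0.226% with vehicle at 4 h, and 0.0371% to 0.0543% with vehicle at 24 and 48 h. Over the 52 libraries Ighm held 2012040 counts and Ighd, the next of these B cell markers, 33283. The summed B cell share here and below is therefore mostly that of Ighm. In such bulk samples fewer cells of a type and less RNA per cell cannot be told apart. Counting was unstranded although the libraries were stranded, so reads of overlapping genes are mixed: 26.4% of the exon bases of Ankrd37, 22.5% of those of Higd1a, 22.3% of those of Bnip3, 19.4% of those of Txnip and 15.3% of those of Pkm lie in another gene. Named pseudogene copies held 225912 counts beside 139338 for Pgam1, 71856 beside 245410 for Pgk1 and 15669 beside 10290 for Bnip3, so the levels of these members are uncertain. The 2 named copies of Gapdh held 121 counts beside 82658, and Gapdh was at 13.5 to 30.5 transcripts per M transcripts (TPM) in unstimulated and vehicle groups. Copies not named after their gene were not counted for any member, so the level of Gapdh is uncertain too. Eno1b, a near copy of Eno1, held 307660 counts beside 1203015 for Eno1, so the level of Eno1 is also uncertain. Vehicle library C of 48 h stood apart from its group, with a chi-square per gene of 73.73 to 155.4 against the other 3 libraries, while no pair of libraries without it within a group was above 39.18. Without it, at 48 h 30 members were higher and 2 lower with vehicle than in unstimulated cells, 30 were lower and 1 higher with DON, 29 were lower and 3 higher in glutamine-free medium, and 12 were higher and 3 lower with CB-839.

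Nearly the whole list was higher with vehicle at 48 h than in unstimulated cells, and members rose in a differing order. The labels give the unstimulated group no time, peptide or IL-2, so effects of these cannot be told apart in comparisons with it. At 4 h, 22 of the 33 members were higher than in unstimulated cells and 9 were lower, against 33.9% and 41% of the 18317 genes tested. At 24 h, 27 were higher and 3 lower (38.7% and 45.5% of all genes), and at 48 h, 31 were higher and 2 lower (38.3% and 45.1%). The members' median log2 fold change was 0.93 at 4 h, 1.92 at 24 h and 1.93 at 48 h, while that of all genes was -0.21, -0.18 and -0.16. The 33 genes together took 0.494% ± 0.0118 of all counts in unstimulated libraries, 0.641% ± 0.00971 at 4 h, 1.4% ± 0.0852 at 24 h and 1.59% ± 0.141 at 48 h with vehicle (SD, n = 4 each). Scaling by library totals alone shifted the median of all genes by a further -0.24, -0.30 and -0.28 at 4, 24 and 48 h, and then 20, 27 and 28 members were higher and 11, 5 and 2 lower. B cell markers moved with these comparisons, with 7 of 10 higher at 4 h, 8 lower at 24 h and 10 lower at 48 h, and their part in the results was not tested.

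Hk2, the inducible hexokinase that traps glucose in the cell, rose early. It had 6.11, 8.302, 7.58 and 7.69 CPM in the unstimulated libraries, 223, 206, 178 and 192 CPM with vehicle at 4 h, 346, 355, 294 and 294 CPM at 24 h and 266, 256, 236 and 251 CPM at 48 h. The log2 change from unstimulated cells was 4.76 ± 0.11 (adjusted p = 6.54e-18) at 4 h, 5.39 ± 0.11 at 24 h and 5.04 ± 0.11 at 48 h. All stimulated libraries lay far above the unstimulated ones, and the 48 h libraries lay below those of 24 h. Vegfa, which encodes a secreted growth factor for blood vessels, and Ndrg1, a stress-responsive gene, were also early. Vegfa had 1.399, 2.01, 2.26 and 1.28 CPM in unstimulated libraries, 21.9, 20.1, 18.4 and 22.6 CPM at 4 h, 40.2, 37.8, 34.3 and 30.7 CPM at 24 h and 26.99, 23.1, 30.7 and 30.2 CPM at 48 h. Ndrg1 had 11.7, 9.81, 13.5 and 11.3 CPM in unstimulated libraries, 141, 122, 126 and 127 CPM at 4 h, 36.02, 33.2, 33.03 and 27.8 CPM at 24 h and 13.6, 10.8, 15.6 and 19.6 CPM at 48 h. Vegfa stayed above unstimulated cells at each time, whereas Ndrg1 was high at 4 h and its 48 h libraries overlapped the unstimulated ones. The log2 changes at 4 h were 3.58 ± 0.15 for Vegfa and 3.49 ± 0.14 (adjusted p = 2.22e-14) for Ndrg1, and that of Ndrg1 at 48 h was 0.31 ± 0.14 (adjusted p = 0.0407), a call lost in 9 alternative settings.

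**Figure D1:**
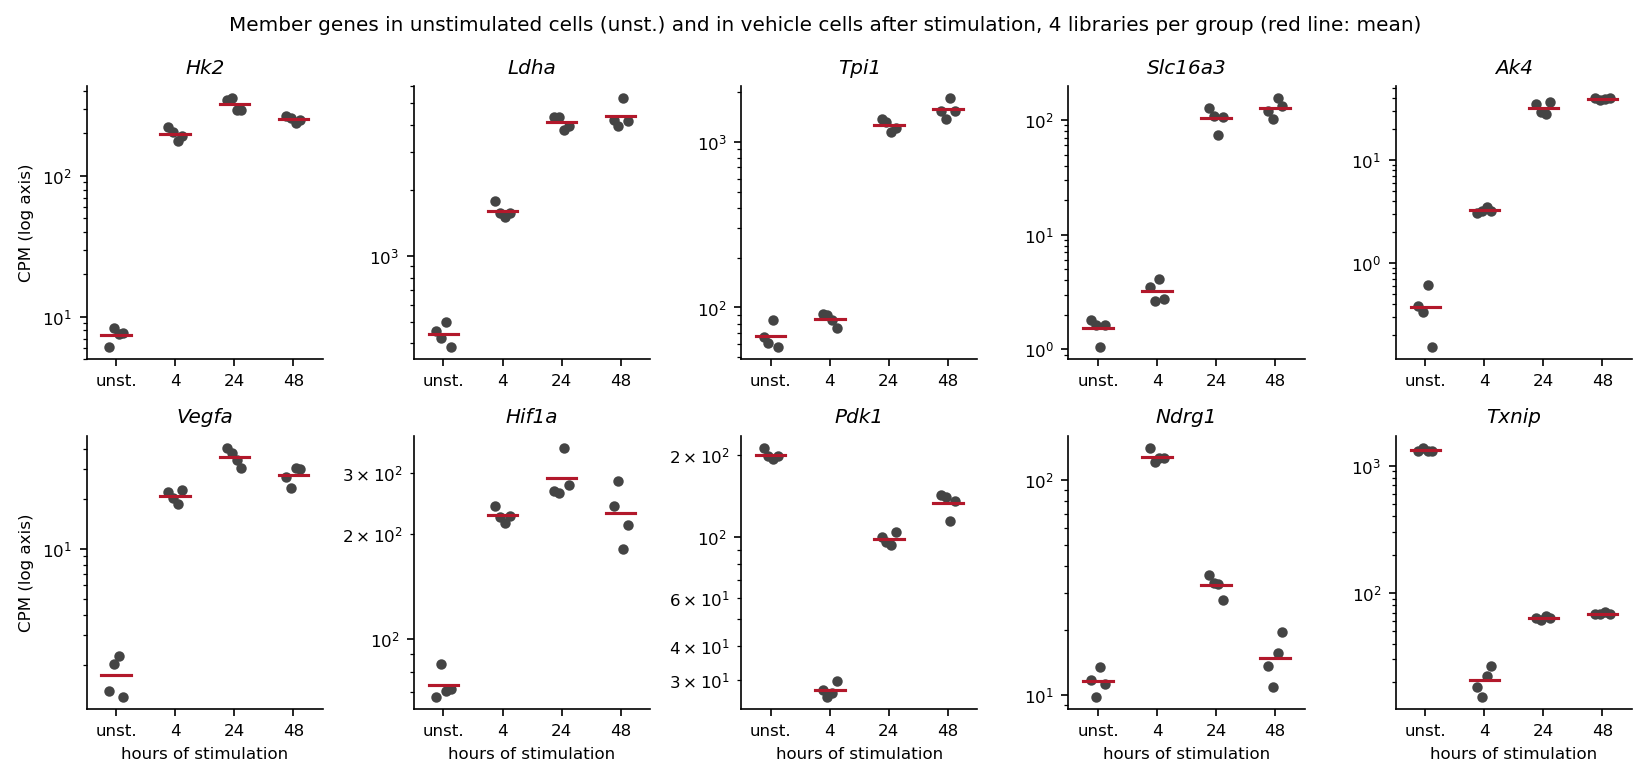
CPM on a log axis (y) in unstimulated cells and with vehicle at 4, 24 and 48 h (x) for 10 members; points are the 4 libraries and red lines their means. Hk2 was already between 178 and 223 CPM at 4 h, whereas Slc16a3 and Tpi1 reached their high levels between 4 and 24 h, and Txnip stayed below its unstimulated level at all 3 times.

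A second set of members was low at 4 h and high at 24 h. Slc16a3, the lactate exporter MCT4, had 1.804, 1.61, 1.05 and 1.65 CPM in unstimulated libraries, 3.498, 2.62, 4.101 and 2.76 CPM at 4 h, 127, 108, 73.9 and 106 CPM at 24 h and 121, 102, 154 and 133 CPM at 48 h. Tpi1, triose phosphate isomerase, had 66.6, 61.3, 83.9 and 57.9 CPM in unstimulated libraries, 91.1, 89.5, 84.1 and 75.5 CPM at 4 h, 1366, 1309, 1140.0 and 1209 CPM at 24 h and 1533, 1379, 1828 and 1545 CPM at 48 h. At 24 h no library of either gene overlapped those of 4 h. The log2 change of 24 h over 4 h was 4.95 ± 0.20 (adjusted p = 1.53e-13) for Slc16a3 and 3.83 ± 0.12 (adjusted p = 1.05e-15) for Tpi1. Eno1, enolase, fell at 4 h and rose afterwards, with 179.7, 162, 196 and 152 CPM in unstimulated libraries, 135, 118, 112 and 114 CPM at 4 h, 1151, 1124, 916 and 939.7 CPM at 24 h and 1360.0, 1186, 1698 and 1429 CPM at 48 h. Ak4, a mitochondrial adenylate kinase, had 0.387, 0.335, 0.617 and 0.154 CPM in unstimulated libraries, 3.05, 3.204, 3.52 and 3.19 CPM at 4 h, 34.95, 29.2, 27.6 and 36.1 CPM at 24 h and 39.3, 37.9, 38.9 and 39.3 CPM at 48 h. Its log2 change of 6.62 ± 0.18 at 48 h over unstimulated cells had the greatest size among the 33 members. Bnip3, which acts in removal of mitochondria, had 1.16, 1.24, 1.05 and 1.39 CPM in unstimulated libraries, 0.722, 0.467, 0.644 and 0.748 CPM at 4 h, 5.797, 5.603, 5.704 and 9.81 CPM at 24 h and 17.9, 17.1, 18.1 and 19.8 CPM at 48 h. It was below unstimulated cells at 4 h and above them at both later times, with log2 changes of -0.91 ± 0.22, 2.42 ± 0.18 and 3.86 ± 0.18 (adjusted p = 1.87e-13) at 4, 24 and 48 h.

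From 4 h to 24 h with vehicle, 30 members rose and 2 fell, against 36.4% and 37.8% of all genes. Ndrg1 (-2.05 ± 0.13) and Pfkfb3 (-0.57 ± 0.06), which makes an activator of phosphofructokinase, were the 2 that fell, and Gapdh (0.19 ± 0.13, adjusted p = 0.193) did not pass the test. From 24 h to 48 h, 13 members rose and 7 fell, against 15.6% and 16.8% of all genes. The largest of these later changes were in Aldoc (1.96 ± 0.24), a minor aldolase, Bnip3 (1.44 ± 0.16), the muscle-type phosphofructokinase Pfkm (1.39 ± 0.11), Ndrg1 (-1.13 ± 0.13) and Egln3 (0.66 ± 0.09), a hydroxylase that marks HIF1 alpha for destruction. Aldoc had 2.97, 2.99, 5.17 and 5.805 CPM at 48 h, against 1.39, 1.19, 0.8904 and 0.838 CPM at 24 h. Pfkm had 40.7, 35.4, 38.6 and 43.4 CPM at 48 h, against 13.1 to 16.5 CPM in the 4 libraries of 24 h. Both pairs of groups were fully apart. The count of members that fell between these times was 5 without vehicle library B of 48 h, 3 without library C of 24 h or library D of 48 h, and 4 without any 1 of the other 5 libraries.

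The members that were lower than in unstimulated cells at 48 h were Txnip and Pdk1. Txnip, which restrains glucose uptake, had 1294, 1366, 1292 and 1311 CPM in unstimulated libraries, 18.3, 15.3, 22.4 and 26.5 CPM with vehicle at 4 h, 63.8, 60.9, 66.4 and 62.96 CPM at 24 h and 68.6, 68.2, 70.2 and 68.1 CPM at 48 h. In unstimulated cells Txnip was the member with the highest level per exon length, at 1016 TPM. Its log2 change was -5.99 ± 0.13 (adjusted p = 6.09e-18) at 4 h and -4.31 ± 0.12 at 48 h. Pdk1, a kinase that keeps pyruvate out of the mitochondrial cycle, had 212, 198, 192 and 198 CPM in unstimulated libraries, 27.6, 26.1, 26.9 and 29.8 CPM at 4 h, 100.5, 95.7, 93.3 and 105 CPM at 24 h and 143, 140.5, 114 and 136 CPM at 48 h. It fell by 2.85 on the log2 scale at 4 h, by 1.07 at 24 h and by 0.64 at 48 h, all past the test. Hif1a had 68.1, 84.5, 70.8 and 71.7 CPM in unstimulated libraries, 241, 224, 215 and 225 CPM at 4 h, 266, 262, 352 and 276 CPM at 24 h and 240.3, 284, 181 and 212 CPM at 48 h. It rose at each time, with log2 changes of 1.62 ± 0.12, 1.92 ± 0.12 and 1.58 ± 0.12. The highest level per exon length at 48 h with vehicle was that of Ldha, which makes lactate from pyruvate, at 2703 TPM, followed by Pkm at 1573 TPM, Aldoa at 1416 TPM and Tpi1 at 1168 TPM.

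By role, the 6 later glycolytic genes were all higher at 24 and at 48 h, and 5 of the 6 at 4 h, with Eno1 lower. Of the 9 early glycolytic genes, 6 were higher and 2 lower at 4 h (Pfkm at -2.76 ± 0.12, Aldoc at -2.40 ± 0.30), and all 9 were higher at 48 h. Under library totals alone Tpi1 at 4 h (adjusted p = 0.292) and Hk1 at 4 h (0.946) and 48 h (0.704) lost their calls. Of the 4 transporters, Slc2a1 (GLUT1; 0.77 ± 0.09 at 4 h), Slc16a1 (MCT1; 2.38 ± 0.12) and Slc16a3 (1.07 ± 0.23) were higher at 4 h and Slc2a3 (GLUT3; -0.66 ± 0.08) was lower. All 7 HIF1 targets outside glycolysis were higher at 24 and 48 h. The oxygen sensors Egln3 (3.37 ± 0.10) and Egln1 (0.80 ± 0.07) were both higher at 48 h.

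DON lowered nearly the whole list from 24 h on. At 24 h, 26 of the 33 members were lower than with vehicle and 2 were higher, against 29.9% and 28.1% of the 16269 genes tested. At 48 h, 30 were lower and 1 was higher, against 35.6% of the 16173 genes in each direction. The members' median log2 change was -0.62 at 24 h and -0.86 at 48 h (all genes, -0.005 and -0.002). All 33 members together took 0.955% ± 0.0353 of counts with DON at 24 h, against 1.4% ± 0.0852 with vehicle, and 0.900% ± 0.022 with DON at 48 h, against 1.59% ± 0.141 with vehicle (SD, n = 4 each). At 4 h, 0 members and 0 genes (0% in either direction) passed the test of edgeR; 6 members had an unadjusted p under 0.05, and DESeq2 called 2 members lower. Replicate letters paired DON with vehicle libraries at 4 h. With the replicate block in the 8 libraries compared, Pgam1 (0.22, adjusted p = 0.0122) and Pgk1 (0.14, adjusted p = 0.0429) were higher and Pfkp (-0.13, adjusted p = 0.0243) was lower, while the block in all 16 libraries called 0 members. The vehicle libraries of a time were shared by all 3 treatments at that time.

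The steepest drops with DON at 48 h were in Slc16a3, Egln3 and 3 HIF1 targets outside glycolysis. Slc16a3 had 37.6, 25.6, 23.5 and 31.7 CPM with DON at 24 h, against 127, 108, 73.9 and 106 CPM with vehicle. At 48 h it had 13.7, 12.6, 11.2 and 11.1 CPM with DON, against 121, 102, 154 and 133 CPM with vehicle. No library overlapped at either time, and the log2 change was -1.74 ± 0.24 (adjusted p = 1.29e-05) at 24 h and -3.29 ± 0.12 (adjusted p = 9.46e-14) at 48 h. Ak4 had 4.37, 4.76, 4.08 and 4.21 CPM with DON at 48 h, against 39.3, 37.9, 38.9 and 39.3 CPM with vehicle. Its log2 change was -1.85 ± 0.15 at 24 h and -3.05 ± 0.08 (adjusted p = 4.29e-16) at 48 h, which left it just above its 4 h vehicle level of 3.05 to 3.52 CPM. Egln3 had 6.005, 8.08, 7.17 and 7.47 CPM with DON at 48 h, against 63.6, 52.5, 67.4 and 65.99 CPM with vehicle, a log2 change of -3.01 ± 0.12 (adjusted p = 1.09e-13). Vegfa had 4.65, 4.58, 4.28 and 4.19 CPM with DON at 48 h, against 26.99, 23.1, 30.7 and 30.2 CPM with vehicle, a log2 change of -2.54 ± 0.11 (adjusted p = 1.96e-13). Bnip3 had 2.55, 3.37, 2.74 and 3.08 CPM with DON at 48 h, against 17.9, 17.1, 18.1 and 19.8 CPM with vehicle, a log2 change of -2.52 ± 0.12 (adjusted p = 8.55e-13). In each of these genes the highest DON library at 48 h lay well below the lowest vehicle library.

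The glucose transporter Slc2a1 had 61.2, 56.6, 55.2 and 66.3 CPM with DON at 24 h, against 166, 153, 131 and 143 CPM with vehicle. At 48 h it had 32.1 to 36.7 CPM in the 4 DON libraries, against 136, 128, 145 and 146 CPM with vehicle. The groups were apart at both times, with log2 changes of -1.24 ± 0.09 and -1.91 ± 0.08 (adjusted p = 1.33e-13), and the DON libraries of 48 h lay below the unstimulated ones (47.1 to 56.5 CPM). Hk2 had 49.7, 53.1, 49.9 and 44.9 CPM with DON at 48 h, against 266, 256, 236 and 251 CPM with vehicle, a log2 change of -2.25 ± 0.07 (adjusted p = 4.14e-15). The DON value was still above the unstimulated level of 6.11 to 8.302 CPM. Pfkp, the platelet-type phosphofructokinase, had 139, 142, 141 and 135 CPM with DON at 48 h, against 664, 625, 605 and 678 CPM with vehicle, a log2 change of -2.10 ± 0.06 (adjusted p = 5.89e-16). Ldha had 1758, 1786, 1737 and 1708 CPM with DON at 48 h, against 4193, 3926, 5266 and 4138 CPM with vehicle, a log2 change of -1.22 ± 0.08 (adjusted p = 1.83e-10). The log2 change of Ldha was smaller in size than those of Hk2 and Pfkp, and no DON library overlapped a vehicle library in any of these genes.

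All 6 later glycolytic genes were lower with DON at 24 h and at 48 h. At 48 h their log2 changes were -1.28 ± 0.08 for Tpi1, -1.11 ± 0.09 for Eno1, -1.06 ± 0.07 for Pgam1 (phosphoglycerate mutase), -0.86 ± 0.06 for Pgk1 (phosphoglycerate kinase), -0.84 ± 0.10 for Pkm (pyruvate kinase) and -0.74 ± 0.13 for Gapdh. Of the 9 early glycolytic genes, 7 were lower at 24 h and 8 at 48 h, and Pfkm passed the test at neither time (0.17 ± 0.09 and -0.14 ± 0.08). Among these were Pfkl, the liver-type phosphofructokinase (-1.32 ± 0.09 at 48 h), Aldoa, the main aldolase (-0.78 ± 0.08), Gpi1, glucose phosphate isomerase (-0.43 ± 0.07), and Hk1, the constitutive hexokinase (-0.39 ± 0.06). All 4 transporters were lower at both times, from -0.40 ± 0.09 for Slc2a3 to -3.29 ± 0.12 for Slc16a3 at 48 h. Hif1a did not pass the test at 24 h (-0.08 ± 0.09, adjusted p = 0.483) and was lower at 48 h, with 126, 132, 146 and 136 CPM with DON, against 240.3, 284, 181 and 212 CPM with vehicle (-0.66 ± 0.10, adjusted p = 9.34e-06). These Hif1a groups did not overlap at 48 h.

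The exceptions with DON were Ldhb and Ndrg1. Ldhb, the heart-type lactate dehydrogenase subunit, had 23.1, 22.4, 21.02 and 17.9 CPM with DON at 24 h, against 14.99, 16.5, 13.3 and 14.4 CPM with vehicle. At 48 h it had 44.3, 43.3, 39.4 and 42.4 CPM with DON, against 16.9, 16.2, 26.3 and 23.7 CPM with vehicle. It rose at both times without overlap, by 0.58 ± 0.09 (adjusted p = 1.83e-05) at 24 h and 1.14 ± 0.12 (adjusted p = 9.56e-08) at 48 h, and the 48 h DON libraries also lay above the unstimulated ones (10.99 to 13.5 CPM). Ndrg1 was higher at 24 h (0.41 ± 0.13, adjusted p = 0.011), with groups that overlapped and a call that was lost without the low-count filter, and its value at 48 h was 0.31 ± 0.14 (adjusted p = 0.0604). Txnip had 28.7, 28.4, 26.6 and 34.1 CPM with DON at 24 h, against 63.8, 60.9, 66.4 and 62.96 CPM with vehicle. It was lower with DON without overlap, with a log2 change of -1.04 ± 0.07 (adjusted p = 5.98e-10) at 24 h and -0.69 ± 0.05 (adjusted p = 3.05e-10) at 48 h.

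Scaling by library totals alone shifted the median of all genes by 0.19 in both DON comparisons. The share of all calls that were higher was then 70.5% at 24 h and 62.8% at 48 h, against 48.4% and 50% with TMM, and 23 and 28 members were lower and 3 and 2 higher. Egln1 at 48 h (-0.18 ± 0.05, adjusted p = 0.0023) lost its direction under that scaling, at 0.008. The calls of Slc2a3 at 24 h (adjusted p = 0.0517) and 48 h (0.0585), and of Gapdh (0.0702) and Higd1a (0.626) at 24 h, were lost too, which left 3 of the 4 transporters lower at both times and 5 of the 6 later glycolytic genes lower at 24 h. In the DON cultures of 48 h, 4 of 4 tested B cell markers and 4 of 4 tested myeloid markers rose. The summed B cell share was 0.0737% to 0.0798% of counts with DON, against 0.0492% to 0.0543% with vehicle, and the myeloid share was 0.00245% to 0.00289%, against 0.000223% to 0.000339%. With DON none of the 10 B cell and 10 myeloid markers was at 0 in all 4 libraries, whereas with vehicle Ms4a1 (B cell) and Adgre1, S100a8 and S100a9 (myeloid) were. At 24 h, 4 of 10 B cell and 2 of 4 tested myeloid markers rose with DON. The summed share of the CD8 T cell markers was 0.363% to 0.374% with DON at 48 h, against 0.292% to 0.307% with vehicle. The CD4 T cell marker share was 0.00101% to 0.00122% with DON, against 0.0007% to 0.000833% with vehicle, at 48 h. The part of these cells in the DON results was not tested.

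**Figure D2:**
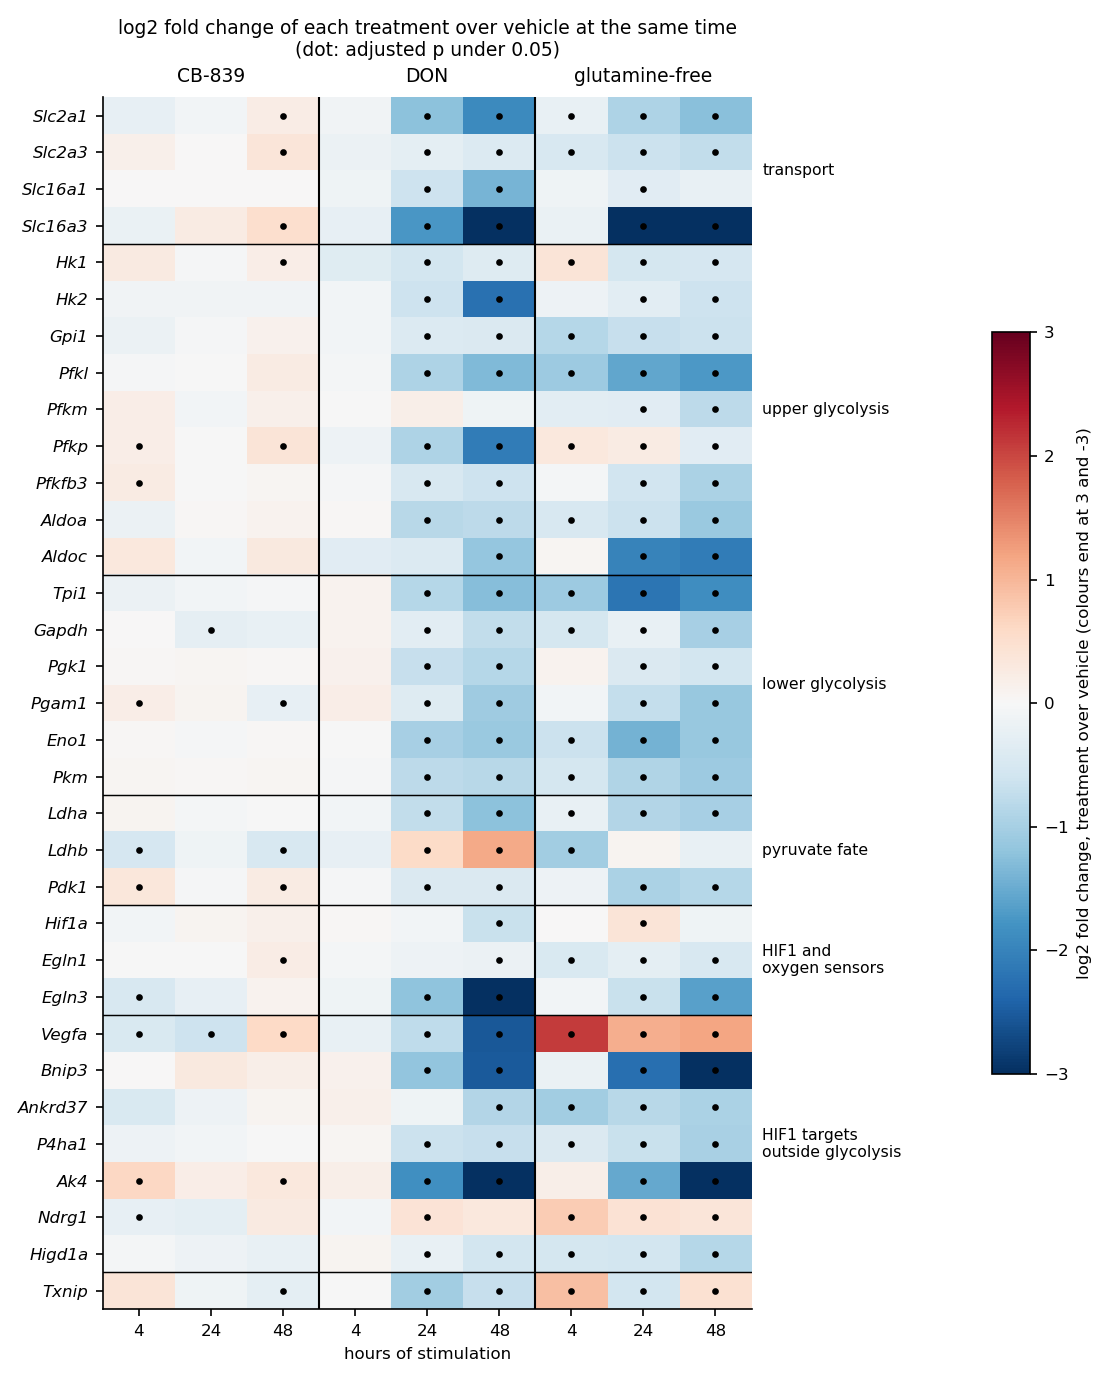
Log2 fold change of the 33 members (rows, by role) in each treatment over vehicle at 4, 24 and 48 h (columns); colours are limited to 3 in either direction and dots mark an adjusted p under 0.05. With DON, no member has a dot at 4 h and 31 have one at 48 h, and Vegfa is the member with the highest positive value in glutamine-free medium at every time.

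Glutamine-free medium also lowered most of the list at 24 and 48 h, and part of it at 4 h. At 4 h, 15 members were lower and 5 higher, against 21.4% and 16.2% of all genes. At 24 h, 28 were lower and 4 higher (28.9% and 30% of all genes), and at 48 h, 27 were lower and 3 higher (26.3% and 28%). The members' median log2 change was -0.21 at 4 h, -0.65 at 24 h and -0.95 at 48 h, while that of all genes was 0.05, 0.03 and 0.02. The 33 genes took 0.534% ± 0.0129 of counts in glutamine-free medium, against 0.641% ± 0.00971 with vehicle, at 4 h (SD, n = 4 each). At 48 h they took 0.849% ± 0.0583 of counts in glutamine-free medium, against 1.59% ± 0.141 with vehicle.

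Slc16a3 showed the steepest drop. It had 8.47, 8.22, 7.78 and 7.86 CPM in glutamine-free medium at 24 h, against 127, 108, 73.9 and 106 CPM with vehicle. At 48 h it had 8.67, 8.56, 9.28 and 7.201 CPM in glutamine-free medium, against 121, 102, 154 and 133 CPM with vehicle. The groups were far apart, with log2 changes of -3.64 ± 0.26 (adjusted p = 9.35e-09) at 24 h and -3.88 ± 0.13 (adjusted p = 1.25e-13) at 48 h. Bnip3 had 1.38, 0.931, 1.42 and 1.703 CPM in glutamine-free medium at 24 h, against 5.797, 5.603, 5.704 and 9.81 CPM with vehicle. At 48 h it had 2.23, 1.61, 1.37 and 2.12 CPM in glutamine-free medium, against 17.9, 17.1, 18.1 and 19.8 CPM with vehicle. Its log2 change was -2.26 ± 0.23 (adjusted p = 7.46e-08) at 24 h and -3.26 ± 0.12 (adjusted p = 4.69e-13) at 48 h, and the glutamine-free libraries lay close to the unstimulated range of 1.05 to 1.39 CPM. Ak4 had 3.68, 3.41, 4.297 and 3.51 CPM in glutamine-free medium at 48 h, against 39.3, 37.9, 38.9 and 39.3 CPM with vehicle, a log2 change of -3.35 ± 0.08 (adjusted p = 1.06e-15). Aldoc had 0.394, 0.465, 0.103 and 0.0786 CPM in glutamine-free medium at 24 h, against 1.39, 1.19, 0.8904 and 0.838 CPM with vehicle, a log2 change of -2.01 ± 0.40 (adjusted p = 0.000234). In both genes all glutamine-free libraries were below all vehicle libraries.

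Of the glycolytic enzymes, Tpi1 and Pfkl were lower at all 3 times. Tpi1 had 26.6, 28.1, 71.6 and 25.96 CPM in glutamine-free medium at 4 h, against 91.1, 89.5, 84.1 and 75.5 CPM with vehicle. At 24 h it had 252, 262, 283 and 265 CPM in glutamine-free medium, against 1366, 1309, 1140.0 and 1209 CPM with vehicle, and at 48 h it had 446, 444, 424 and 362 CPM, against 1533, 1379, 1828 and 1545 CPM with vehicle. Library C at 4 h stood above the other 3 glutamine-free libraries, and no groups overlapped. The log2 change was -1.08 ± 0.26 (adjusted p = 0.00445) at 4 h, -2.19 ± 0.09 (adjusted p = 7.27e-14) at 24 h and -1.87 ± 0.08 at 48 h. Pfkl had 69.6, 62.1, 73.8 and 79.3 CPM in glutamine-free medium at 4 h, against 182, 166, 142 and 155 CPM with vehicle. At 24 h it had 114, 109.5, 114 and 114 CPM in glutamine-free medium, against 399, 368, 286 and 315 CPM with vehicle. Both times were without overlap, with log2 changes of -1.09 ± 0.09 (adjusted p = 1.73e-08) and -1.55 ± 0.11 (adjusted p = 3.01e-10). At 4 h, Ankrd37, an ankyrin-repeat gene induced by HIF1 (-1.05 ± 0.19), and Ldhb (-1.05 ± 0.14) fell as well. Ankrd37 had 0.813, 0.594, 0.8601 and 0.846 CPM in glutamine-free medium at 4 h, against 1.67, 1.74, 1.61 and 1.84 CPM with vehicle. Ldhb had 1.87, 1.49, 1.95 and 1.897 CPM in glutamine-free medium at 4 h, against 3.72, 3.96, 4.69 and 3.395 CPM with vehicle. Neither of these pairs of groups overlapped.

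Glutamine-free library C of 4 h differed from its group in more than Tpi1. Its summed share of myeloid markers was 0.0383% of counts, against 0.00196% to 0.00662% in the other 3 libraries, and its Slc16a3 level was 5.75 CPM, against 1.45 to 1.87 CPM. Library C also had the highest myeloid share of its group in unstimulated cells (0.0173%) and at 4 h with CB-839 (0.0188%), DON (0.0133%) and vehicle (0.0112%, others 0.0024% to 0.00443%). With glutamine-free library C, Slc16a3 did not pass the test at 4 h (-0.21 ± 0.34, adjusted p = 0.671). Without it, Slc16a3 was lower, by 0.88 on the log2 scale (adjusted p = 0.00113), and Tpi1 was lower by 1.55 (adjusted p = 2.79e-11). The call of Tpi1 at 4 h was lost in the fit of the 8 libraries compared, where the highest adjusted p was 0.0656. The part of myeloid cells in these values was not tested.

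Vegfa went the other way. It had 80.9, 80.8, 79.5 and 94.5 CPM in glutamine-free medium at 4 h, against 21.9, 20.1, 18.4 and 22.6 CPM with vehicle. At 24 h it had 79.1, 71.95, 75.4 and 69.99 CPM in glutamine-free medium, against 40.2, 37.8, 34.3 and 30.7 CPM with vehicle, and at 48 h it had 62.6, 65.9, 59.2 and 59.1 CPM, against 26.99, 23.1, 30.7 and 30.2 CPM with vehicle. Every glutamine-free library was above every vehicle library at each time, and the log2 change was 2.10 ± 0.07 (adjusted p = 2.56e-13) at 4 h, 1.10 ± 0.12 (adjusted p = 1.79e-07) at 24 h and 1.20 ± 0.09 (adjusted p = 4.34e-09) at 48 h. The short upstream sequence of Vegfa shown above holds no match of the core. Sequence farther from its start was not searched, and control of Vegfa by HIF1 was not tested. Ndrg1 had 219.8, 187, 184 and 226 CPM in glutamine-free medium at 4 h, against 141, 122, 126 and 127 CPM with vehicle, apart and higher by 0.75 ± 0.07 (adjusted p = 4.69e-08). Its later values were 0.44 ± 0.13 at 24 h and 0.37 ± 0.14 at 48 h, both past the test with overlapping groups, and the call at 48 h was lost in 8 alternative settings. Pfkp had 769.6, 759, 749 and 716 CPM in glutamine-free medium at 24 h, against 698, 672, 604 and 631 CPM with vehicle. It was higher at 4 h (0.31 ± 0.04) and at 24 h (0.25 ± 0.07, adjusted p = 0.00565) and lower at 48 h (-0.35 ± 0.05, adjusted p = 2.04e-05). Hk1 was higher at 4 h (0.39 ± 0.10, with overlap) and lower at the later times.

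Of the 3 times, Hif1a passed the test in glutamine-free medium at 24 h. It had 394, 358, 379 and 323 CPM in glutamine-free medium at 24 h, against 266, 262, 352 and 276 CPM with vehicle, groups that overlapped, with a log2 change of 0.38 ± 0.09 (adjusted p = 0.00126). The values at 4 h and 48 h were 0.01 ± 0.05 (adjusted p = 0.891) and -0.12 ± 0.10 (adjusted p = 0.305), and without vehicle library C of 48 h the second was -0.22 (adjusted p = 0.0285). Egln3 was lower at 24 h (-0.67 ± 0.10) and at 48 h (-1.63 ± 0.11), and Egln1 at all 3 times (-0.47 ± 0.07, -0.29 ± 0.07 and -0.47 ± 0.05 at 4, 24 and 48 h). Hk2 had 164, 165, 167 and 146 CPM in glutamine-free medium at 48 h, against 266, 256, 236 and 251 CPM with vehicle, a log2 change of -0.61 ± 0.07 (adjusted p = 2.76e-07) with no overlap. Slc2a1 had 58.6, 58.9, 59.7 and 50.6 CPM in glutamine-free medium at 48 h, against 136, 128, 145 and 146 CPM with vehicle, a log2 change of -1.24 ± 0.08 (adjusted p = 1.76e-10). Ldha had 2243, 2289, 2185 and 1850.0 CPM in glutamine-free medium at 48 h, against 4193, 3926, 5266 and 4138 CPM with vehicle, a log2 change of -0.99 ± 0.08 (adjusted p = 1.08e-08). The groups were apart for these 3 genes, and Slc16a1 passed the test at 24 h (-0.34 ± 0.07) but not at 48 h (-0.23 ± 0.10, adjusted p = 0.0776), where it passed without vehicle library C (-0.36, adjusted p = 2.59e-05).

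Txnip had 23.1, 37.8, 57.4 and 27.04 CPM in glutamine-free medium at 4 h, against 18.3, 15.3, 22.4 and 26.5 CPM with vehicle. At 24 h it had 46.04, 40.9, 42.1 and 38.6 CPM in glutamine-free medium, against 63.8, 60.9, 66.4 and 62.96 CPM with vehicle, and at 48 h it had 99.1, 89.6, 84.2 and 95.4 CPM, against 68.6, 68.2, 70.2 and 68.1 CPM with vehicle. Library C was again the highest at 4 h, where groups overlapped. It was higher at 4 h (0.90 ± 0.31, adjusted p = 0.0384), lower at 24 h (-0.55 ± 0.07, adjusted p = 1.61e-06) and higher at 48 h (0.46 ± 0.05, adjusted p = 1.91e-07). The 4 h call was lost in 8 alternative settings, among them leaving out library C (0.62, adjusted p = 0.132), and the 48 h call was lost in the fit of all 52 libraries (adjusted p = 0.0622).

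All 6 later glycolytic genes were lower in glutamine-free medium at 24 h and 48 h, and 4 of them at 4 h. At 48 h the log2 changes of Eno1, Pgam1, Pkm and Gapdh were -1.13 ± 0.09, -1.14 ± 0.07, -1.10 ± 0.10 and -0.99 ± 0.13, and that of Pgk1 was smaller in size at -0.55 ± 0.06. All 9 early genes were lower at 48 h, from -0.35 ± 0.05 for Pfkp to -2.10 ± 0.24 for Aldoc. Higd1a, a hypoxia-induced mitochondrial protein, and P4ha1, which hydroxylates prolines of collagen, were lower at all 3 times (-0.86 ± 0.09 and -0.97 ± 0.06 at 48 h). Scaling by library totals shifted the median of all genes by 0.10 at 24 h and at 48 h. The share of calls that were higher was then 61.4% and 63.5%, against 51% and 51.6% with TMM, while 27 members were lower at each of these times, and Gapdh at 24 h lost its call (adjusted p = 0.0585). The summed B cell share was 0.0265% to 0.0315% of counts in glutamine-free medium at 24 h, against 0.0371% to 0.0387% with vehicle, and at 48 h it was 0.0404% to 0.0472%, against 0.0492% to 0.0543%. The myeloid share was 0.000422% to 0.000542% at 48 h, against 0.000223% to 0.000339%, and 1 of 4 tested myeloid markers rose. The CD4 T cell marker share was 0.00278% to 0.00372% at 24 h in glutamine-free medium, against 0.0011% to 0.00128% with vehicle, and 0.00306% to 0.00384% at 48 h, against 0.0007% to 0.000833%, with no overlap at either time. Most of it was Zbtb7b (2.72 ± 0.11 at 48 h), which with Foxp3 (2.29 ± 0.40) was higher, whereas Cd40lg (-1.09 ± 0.18) was lower. Cd4 itself was too low to be tested, at 0.0537 ± 0.049 CPM in glutamine-free medium and 0.105 ± 0.0672 CPM with vehicle (SD, n = 4 each). The part of these cells in the results was not tested.

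**Figure D3:**
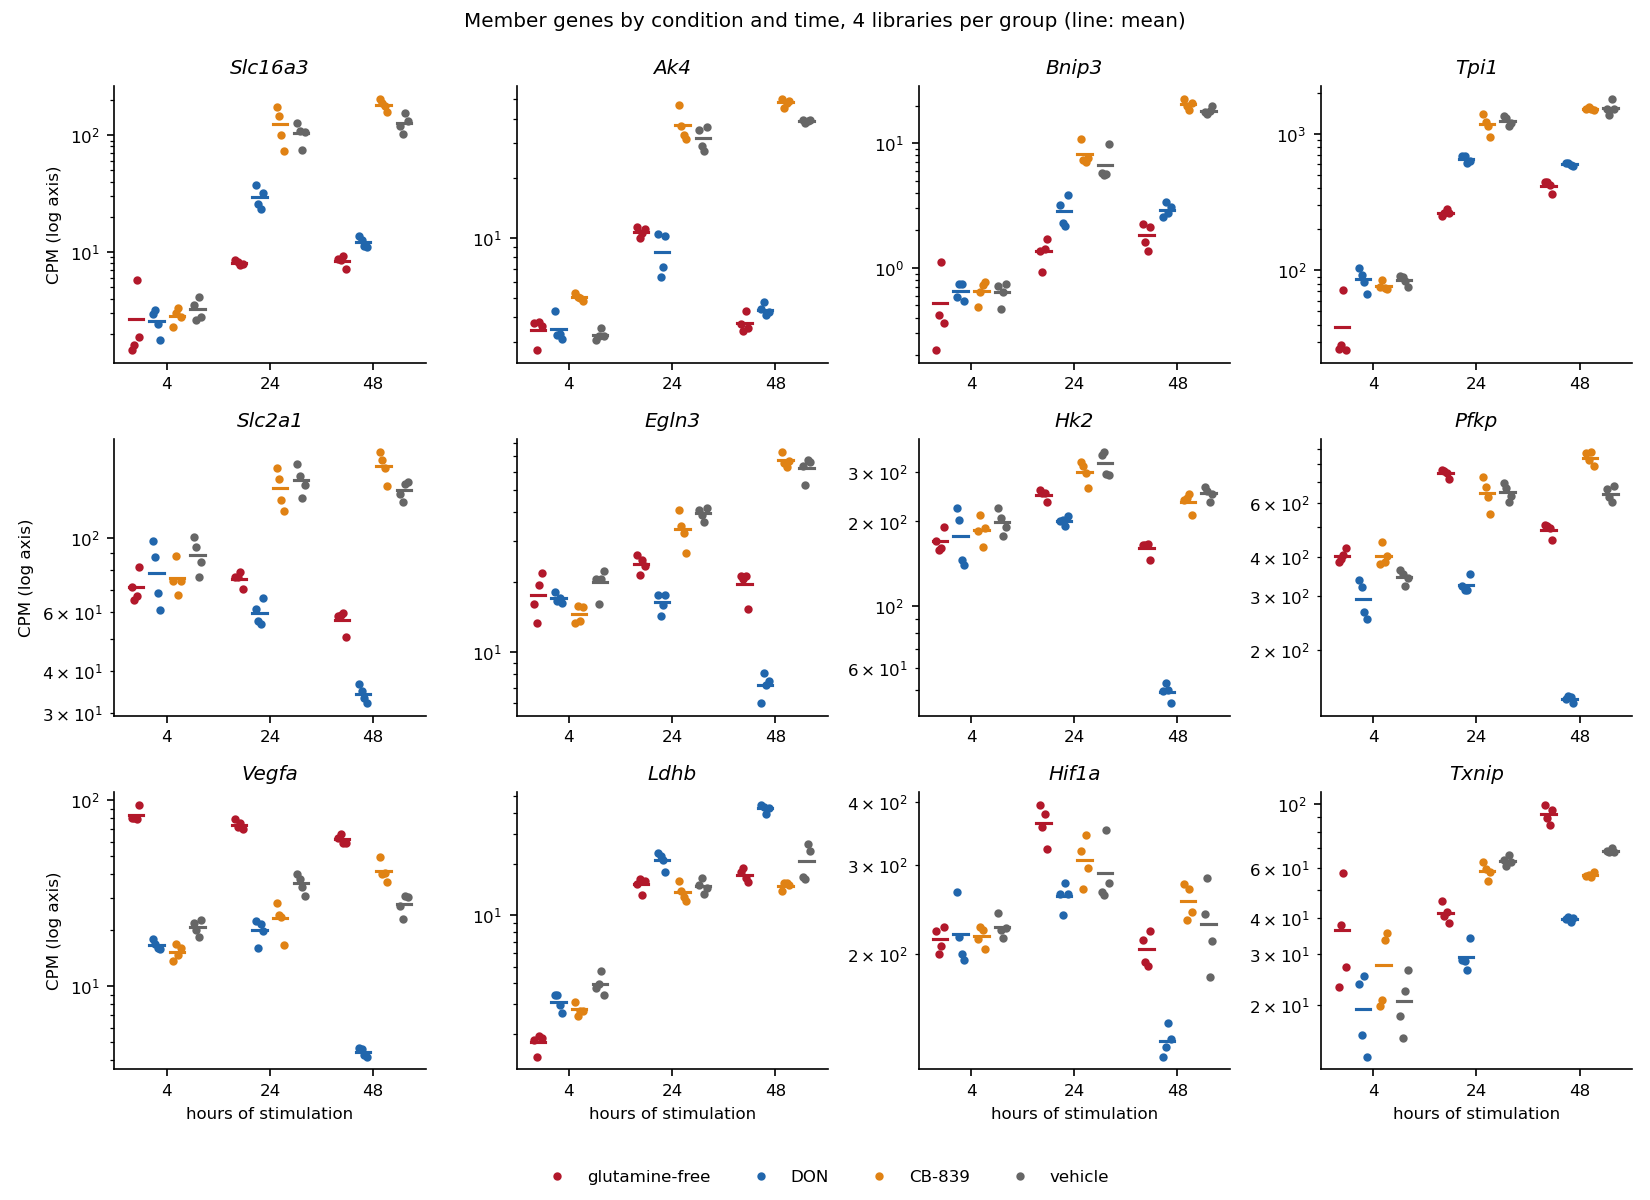
CPM on a log axis (y) of 12 members at 4, 24 and 48 h (x), in the order glutamine-free, DON, CB-839 and vehicle at each time; points are the 4 libraries. Slc16a3, Ak4 and Bnip3 are low in glutamine-free and DON libraries at 24 and 48 h, and Vegfa is high in glutamine-free libraries, at 59.1 to 94.5 CPM, and low with DON at 48 h, at 4.19 to 4.65 CPM.

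Glutamine-free medium and DON were compared directly at matched times, since both lowered the list. At 24 h, 9 members were higher in glutamine-free medium than with DON and 14 were lower, against 28.7% and 30.2% of all genes, and at 48 h, 10 were higher and 17 lower (34.6% and 34.1%). The largest difference at 24 h was in Slc16a3, followed by Vegfa, and that at 48 h was in Vegfa. Vegfa had 62.6, 65.9, 59.2 and 59.1 CPM in glutamine-free medium at 48 h, against 4.65, 4.58, 4.28 and 4.19 CPM with DON. The groups were far apart and the log2 difference was 1.86 ± 0.12 (adjusted p = 1.24e-10) at 24 h and 3.74 ± 0.11 (adjusted p = 1.74e-15) at 48 h. Pfkp had 508, 507, 499 and 454 CPM in glutamine-free medium at 48 h, against 139, 142, 141 and 135 CPM with DON, a log2 difference of 1.76 ± 0.05 (adjusted p = 3.88e-15). Hk2 was higher in glutamine-free medium at 48 h, at 146 to 167 CPM, against 44.9 to 53.1 CPM with DON (1.64 ± 0.07, adjusted p = 2.02e-13). Egln3 was higher too, at 15.2 to 21.2 CPM, against 6.005 to 8.08 CPM (1.38 ± 0.12, adjusted p = 6.2e-09). Hif1a was higher at 24 h (0.46 ± 0.09) and 48 h (0.54 ± 0.10, adjusted p = 0.000103).

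Other members were lower in glutamine-free medium than with DON. Slc16a3 had 7.78 to 8.47 CPM in glutamine-free medium at 24 h, against 23.5 to 37.6 CPM with DON, a log2 difference of -1.89 ± 0.26 (adjusted p = 1.18e-05). At 48 h the difference was -0.60 ± 0.13 (adjusted p = 0.000416), and it was lost in the fit of all 52 libraries (adjusted p = 0.0739). Tpi1 was lower at both times, with log2 differences of -1.33 ± 0.09 at 24 h and -0.58 ± 0.08 at 48 h. Aldoc was lower at 24 h, with a log2 difference of -1.59 ± 0.41 (adjusted p = 0.00255), at levels under 1.1 CPM in every library. Ldhb had 17.9, 19.02, 16.5 and 15.7 CPM in glutamine-free medium at 48 h, against 44.3, 43.3, 39.4 and 42.4 CPM with DON, a log2 difference of -1.36 ± 0.12 (adjusted p = 1.11e-08) with no overlap. Ak4 and Bnip3, low in both conditions at 48 h, differed by -0.30 ± 0.09 and -0.74 ± 0.14, and the call of Ak4 was lost in the fit of all 52 libraries (adjusted p = 0.178). Txnip was higher in glutamine-free medium at 24 h (0.49 ± 0.07) and at 48 h (1.15 ± 0.05, adjusted p = 2.83e-13).

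CB-839, which blocks the first step of glutamine breakdown, changed fewer members than glutamine-free medium at each time, and by small amounts. At 4 h, 5 members were higher and 4 lower, against 5.85% and 6.64% of all genes. At 24 h, 0 were higher and 2 lower (2.47% and 2.48%), and 5 members had an unadjusted p under 0.05 in edgeR, while DESeq2 too called 0 higher. At 48 h, 9 were higher and 3 lower (8.5% and 6.73%). Replicate letters paired CB-839 with vehicle libraries at 4 and 24 h, and with the replicate block 6 members were higher and 8 lower at 4 h, and 4 lower at 24 h. With the block in the 8 libraries compared alone, 8 were higher and 11 lower at 4 h, and 6 lower at 24 h. The shares of all genes above belong to the fits without the block, and none is given for the blocked fits.

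Vegfa was lower with CB-839 early and higher late. It had 13.7, 16.8, 14.7 and 15.99 CPM with CB-839 at 4 h, against 21.9, 20.1, 18.4 and 22.6 CPM with vehicle. At 24 h it had 28.03, 24.3, 23.7 and 16.8 CPM with CB-839, against 40.2, 37.8, 34.3 and 30.7 CPM with vehicle, and at 48 h it had 49.6, 40.1, 40.9 and 36.3 CPM, against 26.99, 23.1, 30.7 and 30.2 CPM with vehicle. No library overlapped at any time, and the log2 change was -0.46 ± 0.07 (adjusted p = 0.000157) at 4 h, -0.63 ± 0.12 (adjusted p = 0.00517) at 24 h and 0.59 ± 0.09 (adjusted p = 0.000322) at 48 h. The other member called at 24 h was Gapdh, with 41.2, 42.7, 40.04 and 38.03 CPM with CB-839, against 51.97, 50.8, 45.2 and 46.4 CPM with vehicle (-0.27 ± 0.06, adjusted p = 0.0124), and it was lost in the fit of all 52 libraries (adjusted p = 0.255). Ak4 had 5.28, 5.05, 4.98 and 4.81 CPM with CB-839 at 4 h, against 3.05, 3.204, 3.52 and 3.19 CPM with vehicle, a log2 change of 0.61 ± 0.12 (adjusted p = 0.00181). Pdk1 had 33.5, 37.1, 34.7 and 36.5 CPM with CB-839 at 4 h, against 27.6, 26.1, 26.9 and 29.8 CPM with vehicle, a log2 change of 0.34 ± 0.06 (adjusted p = 0.00106). Ldhb (-0.51 ± 0.13, adjusted p = 0.0167) and Egln3 (-0.48 ± 0.12, adjusted p = 0.00998) were lower at 4 h. Ldhb was lost without the low-count filter, without vehicle library C or without CB-839 library B. Egln3 and Ndrg1 were both lost without vehicle library D, which left 2 members lower. In all, Ndrg1 was lost in 6 alternative settings, and Pgam1, which was higher at 4 h, was lost in 9.

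At 48 h with CB-839, Slc16a3 had 206, 187, 177 and 157 CPM, against 121, 102, 154 and 133 CPM with vehicle, a log2 change of 0.51 ± 0.11 (adjusted p = 0.00471) that was lost in the fit of all 52 libraries (adjusted p = 0.199). Pfkp had 872, 828, 879 and 789 CPM with CB-839, against 664, 625, 605 and 678 CPM with vehicle, a log2 change of 0.38 ± 0.05 (adjusted p = 9.1e-05). Both were apart from vehicle in all libraries. Ldhb had 13.9, 15.5, 15.4 and 14.9 CPM with CB-839, against 16.9, 16.2, 26.3 and 23.7 CPM with vehicle, a log2 change of -0.48 ± 0.12 (adjusted p = 0.0134) that was lost in the fit of the 8 libraries compared (adjusted p = 0.092). Slc2a3 had 83.8, 88.04, 68.4 and 84.7 CPM with CB-839, against 56.4, 58.2, 60.9 and 78.6 CPM with vehicle, a log2 change of 0.35 ± 0.09 (adjusted p = 0.0144). The groups of Slc2a3 overlapped, and its call was lost without vehicle library A or CB-839 library B. The count of 9 higher members at 48 h was 6 to 12 with 1 library left out, 4 in the fit of the 8 libraries compared, and 3 in that of all 52. The count of 3 lower members was 1 in each of these fits. Of Hif1a, Hk2 and Ldha, none passed the test at any time with CB-839, whereas Slc2a1 and Txnip passed it at 48 h. Slc2a1 was higher, at 100.3 TPM with CB-839 against 81.5 TPM with vehicle, a call lost in 9 alternative settings. Txnip was lower, at 39.01 TPM against 45.47 TPM, a call lost in 2 alternative settings. The remaining calls at 48 h were Ak4, Egln1, Hk1 and Pdk1, which were higher, and Pgam1, which was lower. Each of these was lost in at least 2 settings.

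Whether a treatment effect differed between 24 h and 48 h was tested as an interaction over all 52 libraries. For CB-839 the effect was higher at 48 h than at 24 h in 2 members, Vegfa (1.22 ± 0.16, adjusted p = 1.76e-06) and Pfkp (0.40 ± 0.11, adjusted p = 0.0453), and lower in 0, against 0.508% and 0.418% of the 21069 genes tested; 9 members had an unadjusted p under 0.05, and DESeq2 called 5 higher and 1 lower. The higher count was 4 without CB-839 library A of 24 h, without CB-839 library C of 48 h or without vehicle library D of 48 h. For DON the effect was lower at 48 h in 15 members and higher in 1, against 16.1% and 10.8% of all genes. The 5 largest of these were Egln3 (-1.84 ± 0.17, adjusted p = 8.09e-13), Vegfa (-1.81 ± 0.17), Hk2 (-1.67 ± 0.14, adjusted p = 1.25e-13), Slc16a3 (-1.58 ± 0.33) and Bnip3 (-1.39 ± 0.29), and the 1 member with a higher effect was Ldhb (0.52 ± 0.15). For glutamine-free medium the effect was lower at 48 h in 10 members and higher in 1, against 7.78% and 9.84% of all genes. It deepened for Ak4 (-1.81 ± 0.18, adjusted p = 1.53e-11), Bnip3 (-0.99 ± 0.31), Egln3 (-0.95 ± 0.16) and Gapdh (-0.75 ± 0.15), and the 1 member with a higher effect was Txnip (1.02 ± 0.26, adjusted p = 0.00312). Slc16a3 and Tpi1, both already low at 24 h in glutamine-free medium, gave -0.24 ± 0.34 (adjusted p = 0.708) and 0.33 ± 0.25 (adjusted p = 0.401).

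The share of each isoform within its family, per exon length and in TPM, is given as a description. Hk2 made up 5.69% ± 0.847 of hexokinase TPM (Hk1 and Hk2) in unstimulated cells and 57.8% ± 3.86, 63.9% ± 1.2 and 61.3% ± 2.19 with vehicle at 4, 24 and 48 h (SD, n = 4 each). At 48 h it made up 30.4% ± 1.88 with DON and 59.6% ± 0.923 in glutamine-free medium. Slc16a3 made up 15.4% ± 2.82 of the 2 lactate transporters with DON at 24 h, 3.87% ± 0.222 in glutamine-free medium and 28.1% ± 4.93 with vehicle. At 48 h its share was 14.2% ± 2.36 with DON, 4.61% ± 0.561 in glutamine-free medium, 45.9% ± 3.51 with CB-839 and 38.2% ± 9.1 with vehicle. The CB-839 libraries (41.6% to 50%) lay within the vehicle range (29.5% to 50.9%), whose upper end was library C, which stood apart from its group. Vehicle libraries A, B and D were at 34.9%, 29.45% and 37.53%, below every CB-839 library. Pfkp made up 73.3% ± 0.743 of phosphofructokinase TPM in glutamine-free medium at 24 h, against 46.8% ± 2.03 with vehicle, while Pfkl made up 22.2% ± 0.706, against 48.9% ± 2.06. With DON at 48 h Pfkm reached 24.9% ± 0.361, against 10.5% ± 0.505 with vehicle, and Pfkp was at 25.9% ± 1.2, against 42.7% ± 3.14. The level of Pfkm itself did not pass the test there (-0.14 ± 0.08), and those of Pfkp and Pfkl were lower. Pfkl had the highest share of the 3 with DON at 48 h (49.2% ± 1.1), and Pfkp had it in glutamine-free medium (62.3% ± 0.692). The order with DON depended on exon length. By counts with no length, Pfkp was at 45.7% and Pfkl at 43.3% with DON at 48 h. Ldhb made up 4.86% ± 0.213 of lactate dehydrogenase TPM with DON at 48 h, 1.68% ± 0.0861 in glutamine-free medium and 0.984% ± 0.166 with vehicle, beside 5.46% ± 0.439 in unstimulated cells. Slc2a3 made up 38.7% ± 2.13 of the TPM of the 2 glucose transporters with DON at 48 h, against 18.1% ± 1.79 with vehicle, while its own level was lower with DON. By counts with no length, these shares of Slc2a3 were 56.6% with DON and 31.3% with vehicle.

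**Figure D4:**
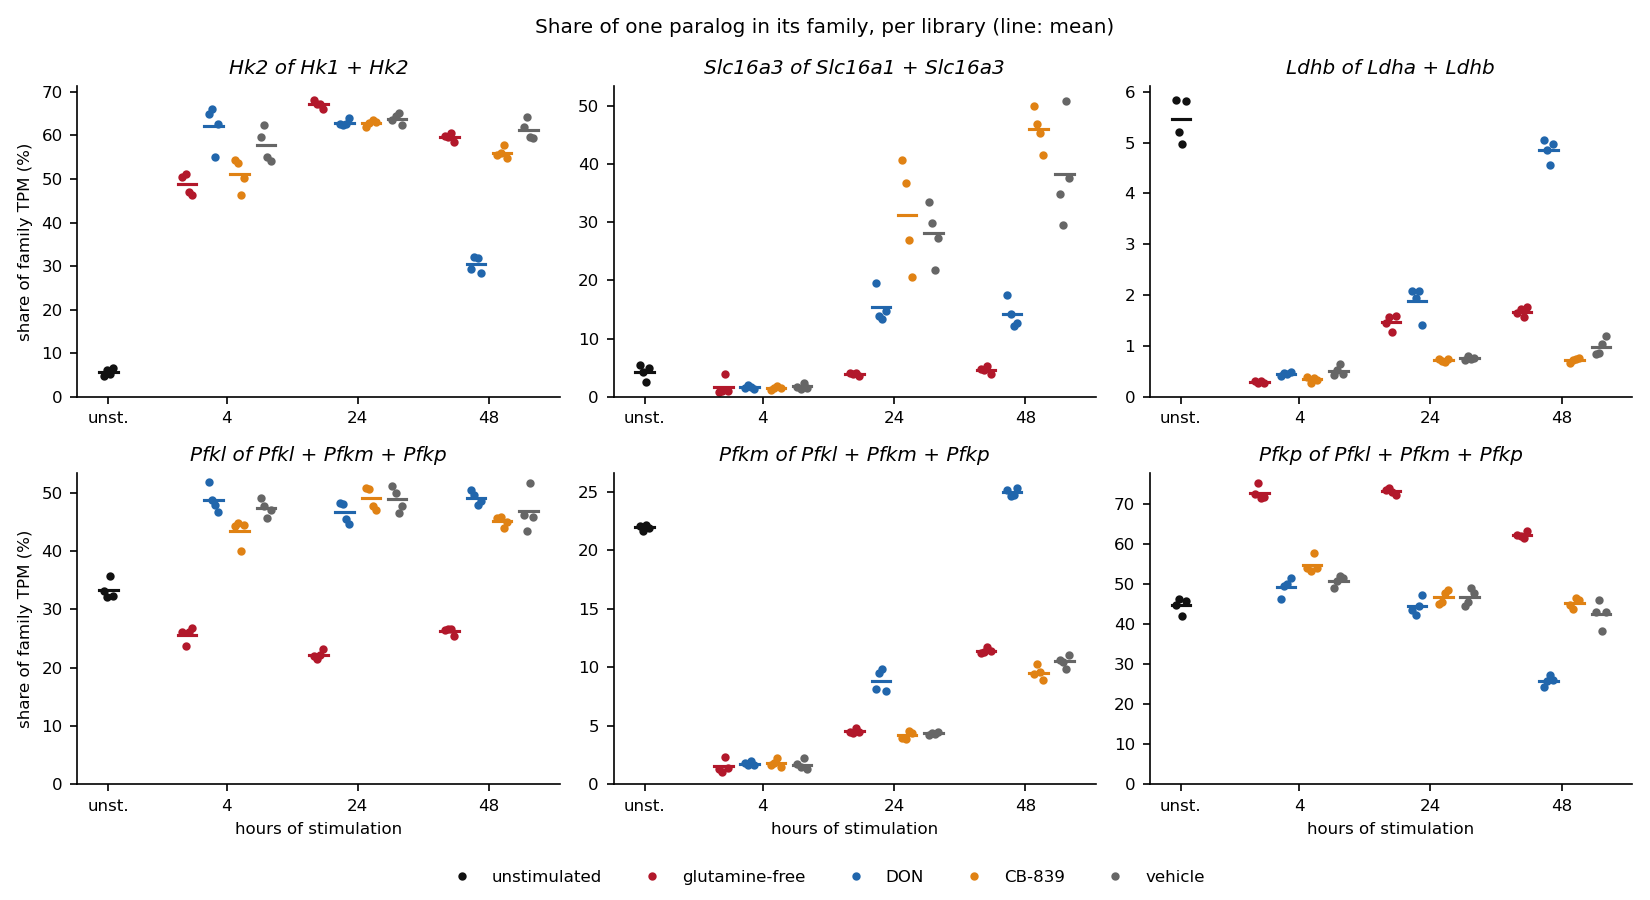
Share in percent of family TPM (y) of 6 isoforms in each group (x); points are the 4 libraries. Pfkp lies at 61.6% to 75.2% in all glutamine-free libraries, and the shares of Pfkm and Ldhb are higher with DON than with vehicle at 48 h, where the level of Ldhb rose and that of Pfkm did not pass the test.

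Promoter marks at 48 h came from the authors' peak lists, 1 for each mark and condition, merged from 2 replicates at an irreproducible discovery rate (IDR) of 0.05, so no error can be given. H3K27ac marks active promoters and enhancers, and H3K27me3 marks silenced genes. A peak within 1000 bases of the start of the gene in the count table was counted. That start lies 8661 bases from the RefSeq promoter for Aldoa, 6492 for Hif1a, 5857 for Ankrd37 and 4329 for Ldha. Peaks at these RefSeq promoters may therefore not be counted. In vehicle cells 18 of the 33 members had a listed H3K27ac peak, against 43.9% of the 15182 genes with at least 160 counts at 48 h. In glutamine-free medium 12 members had one, against 29.9% of these genes, with DON 2 (Pgk1 and Slc16a1), against 0.211%, and with CB-839 0, against 0.672%. These lists held 6687, 33 and 117 peaks for glutamine-free medium, DON and CB-839, against 9681 for vehicle, so a missing peak cannot be told apart from a short list. The members listed with vehicle but not in glutamine-free medium were Egln1, Gapdh, Ndrg1, Pfkl, Pgk1 and Txnip. Those listed in neither were Ak4, Aldoc, Ankrd37, Bnip3, Egln3, Gpi1, Hif1a, Hk1, Hk2, Ldha, Ldhb, Pfkfb3, Slc16a3, Tpi1 and Vegfa. At an IDR of 0.01 no H3K27ac peak is left in the vehicle, CB-839 and glutamine-free lists and 1 is left in the DON list. An H3K27me3 peak was listed at 1 member with vehicle (Ldhb), against 10% of genes, at 2 with CB-839 (Ak4 and Ldhb), against 10.3%, at 2 with DON (Ak4 and Ldhb), against 3.37%, and at 0 in glutamine-free medium, against 6.6%.

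Other genes of glycolysis were called in both directions. Of 25 listed, 16 were tested at 48 h. With DON 7 were higher and 4 lower, against 35.6% of all genes in each direction. In glutamine-free medium 3 were higher and 5 lower, against 28% and 26.3%. Those with the smallest adjusted p with DON at 48 h were Adpgk (-1.19 ± 0.05), an ADP-dependent glucokinase, Bpgm (1.08 ± 0.06), bisphosphoglycerate mutase, Pfkfb4 (1.58 ± 0.11), a relative of Pfkfb3, and Pdk2 (2.99 ± 0.22), a relative of Pdk1. Pdk2 was also higher in glutamine-free medium, by 2.64 ± 0.25 at 24 h and 2.07 ± 0.23 (adjusted p = 4.79e-07) at 48 h. It had 3.42 to 4.29 CPM with DON and 1.902 to 2.29 CPM in glutamine-free medium at 48 h, against 0.268 to 0.674 CPM with vehicle. Eno3, the muscle enolase, was lower in glutamine-free medium at 48 h (-1.34 ± 0.08), as was Eno1b (-1.13 ± 0.09), a near copy of Eno1 whose reads may be shared with it.

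Among 10 other genes of the HIF pathway, all tested at 48 h, 3 were higher and 3 lower with DON, and 1 higher and 4 lower in glutamine-free medium, beside the same shares of all genes. Epas1, which encodes HIF2 alpha, was higher with DON (1.78 ± 0.24) and lower in glutamine-free medium (-2.30 ± 0.35) at 48 h. Of 23 other HIF target genes, 21 were tested at 48 h, and 4 were higher and 14 lower with DON (35.6% of all genes in each direction), and 3 higher and 12 lower in glutamine-free medium (28% and 26.3%). Fam162a, a HIF1-induced mitochondrial protein (-0.98 ± 0.07), Car12, a carbonic anhydrase (-1.75 ± 0.09), and Rcor2, a corepressor subunit (-2.78 ± 0.20), were lower with DON. P4ha2, a relative of P4ha1, was lower in glutamine-free medium (-3.40 ± 0.31), and Gys1, glycogen synthase (1.49 ± 0.10), and Stc2, a secreted glycoprotein (3.19 ± 0.20), were higher. At 4 h in glutamine-free medium 7 of the 21 target genes tested were higher and 3 lower, against 16.2% and 21.4% of all genes, led by Ddit4, a stress-induced inhibitor of mTORC1 (2.44 ± 0.16), and Gys1 (1.82 ± 0.11). In the network of MondoA, the glucose-sensing factor that drives Txnip, 3 of 4 listed genes were tested. Arrdc4, a relative of Txnip, was higher in glutamine-free medium by 2.97 ± 0.21 (adjusted p = 3.24e-10) at 24 h and 2.82 ± 0.22 at 48 h, and Mlx, the partner of MondoA, was lower with DON (-0.71 ± 0.05) and in glutamine-free medium (-0.67 ± 0.05) at 48 h.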

How the data were processed

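RNA-seq was measured in 52 libraries and CUT&RUN in 20 samples. The deposited count table held whole-number counts for each gene, which the authors obtained from featureCounts 2.0.1 on GENCODE M25 (mm10), per the file headers. The counting command, as the header shows it, set no strand option, although the libraries were stranded per the labels' protocols, so reads of overlapping or antisense genes cannot be told apart. Mitochondrial genes had no counts. The submitters' processing notes also name STAR, Bowtie2, MACS2, FastQC and deepTools, with no version. The 8 deposited peak lists gave a score, a signal and −log10 columns per merged peak in the layout of an IDR output; these are the authors' values. They were used only to filter peaks.

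Counts were tested with edgeR 4.0.16 in R 4.3.3 (TMM, low-count filter by group, robust quasi-likelihood, Benjamini-Hochberg adjustment over all genes tested, threshold 0.05). The 16 libraries of a time shared 1 fit, as did unstimulated and vehicle libraries (16), and interactions used all 52. CPM were TMM-scaled, and TPM used the exon lengths of the table. The test was checked on simulated counts. Tables and figures used Python 3.11.15, pandas 2.3.3 and matplotlib 3.10.9. No replicates were merged, since their counts differed beyond sampling noise.

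All 33 members are counted in each comparison, but not every called member is named. Values in every library are given for most, not all, of the 5 largest changes past the threshold. They are also given for Hif1a, Slc2a1, Hk2, Ldha and Txnip in most cases where these lead or go against their group. For the other lists, up to 4 genes with the smallest adjusted p are named per list. A few named later for contrast were chosen after their values were seen. The members, lists and rules were chosen with earlier results of these data known.

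Whether replicate letters pair libraries was checked by correlating deviations from group means over genes whose mean log2 CPM was 3 or more. The letters were taken as pairs where all 4 correlations were over 0.1. This held at 4 h for CB-839 (0.566 to 0.67) and DON (0.239 to 0.647), each with vehicle. At 24 h it held for CB-839 with vehicle (0.591 to 0.748) and for glutamine-free medium with DON (0.119 to 0.364). What a letter shares is not given in the labels. Alternatives were RLE scaling, library totals, no low-count filter, DESeq2 1.42.0, the replicate block, the 8 libraries compared, all 52 libraries, leaving out each library, a stricter IDR and other promoter windows. Isoform shares were also taken from counts with no exon length.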

Additional observations from a re-analysis of the deposited data

Results flagged for a closer look

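The highest or lowest library stood far from the other 3 of its group in 18 of 286 groups examined (22 genes in 13 groups of 4); chance gives about 1 in 20 such groups. In glutamine-free medium at 48 h, library D was low for Hk2 (145.7 CPM, others 164.3 to 166.8), Egln3 (15.25, others 20.63 to 21.23), Pfkl (91.15, others 107.5 to 108.6) and Slc2a1 (50.58, others 58.61 to 59.74). At 24 h in that medium, library D was low for Eno1 (354.4, others 376.1 to 380.5) and library B for Pfkl (109.5, others 113.8 to 114.4). At 4 h, library C was high for Slc16a3 (5.749 CPM, others 1.45 to 1.871) and Tpi1 (71.59, others 25.96 to 28.12), library D was high for Vegfa (94.48, others 79.51 to 80.9), and library B was low for Ak4 (2.723, others 3.588 to 3.757) and Ldhb (1.485, others 1.868 to 1.946).

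With DON, library A of 4 h was high for Ak4 (4.261 CPM, others 3.094 to 3.277). With CB-839, library A of 24 h was high for Bnip3 (10.8, others 7.033 to 7.66) and library D of 48 h was low for Ldha (4152, others 4386 to 4426). With vehicle, library D of 24 h was high for Bnip3 (9.809, others 5.603 to 5.797), library C of 24 h for Hif1a (352.5, others 261.5 to 276.5) and library A of 4 h for Slc2a3 (35.12, others 31.91 to 32.2). Unstimulated library C was low for Ankrd37 (1.531, others 1.979 to 2.043).

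Treatment effects differed between 48 h and 24 h by the interaction test in 2 members with CB-839, 16 with DON and 11 in glutamine-free medium. The log2 differences named were 1.22 for Vegfa and 0.40 for Pfkp with CB-839. With DON they were -1.84 for Egln3, -1.81 for Vegfa, -1.67 for Hk2, -1.58 for Slc16a3 and -1.39 for Bnip3. In glutamine-free medium they were -1.81 for Ak4, 1.02 for Txnip, -0.99 for Bnip3, -0.95 for Egln3 and -0.75 for Gapdh.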

How the results depend on the processing

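Leaving out each library in turn kept 3246 of 3344 refitted calls of members and reversed 0. Of 389 calls, 383 were kept with RLE scaling, 384 with DESeq2, 376 without the low-count filter, 388 with the replicate block and 372 with library totals, which reversed Slc2a3 in vehicle at 48 h against unstimulated (-0.042) and Egln1 with DON at 48 h (0.008). Of 360 calls, 342 were kept in fits of the 8 libraries compared, 340 in that of all 52 and 332 with the replicate block in those 8. The letters pair the libraries only where stated under the processing, and elsewhere the replicate block lost 1 call, Ankrd37 in vehicle at 48 h against 24 h.

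Counts of members moved as follows. With library totals, 5 were lower in vehicle at 24 h against unstimulated, 4 were lower in vehicle at 48 h against 24 h, 8 lower with CB-839 at 4 h and 2 higher with DON at 48 h. In the 8 libraries compared, 3 were lower in vehicle at 48 h against 24 h, 8 lower with CB-839 at 4 h, and 4 higher and 1 lower with CB-839 at 48 h. With the replicate block in those 8, 6 were higher and 2 lower in vehicle at 48 h against 24 h, 8 higher and 11 lower with CB-839 at 4 h, 2 higher and 1 lower with DON at 4 h, 6 lower with CB-839 at 24 h, and 0 higher and 0 lower with CB-839 at 48 h, where edgeR gave adjusted p = 0.0524 for Vegfa and 0.0509 for Pfkp. With the replicate block in all 16, 8 were lower with CB-839 at 4 h and 4 at 24 h. In all 52 libraries, 1 was lower with CB-839 at 24 h, 3 were higher and 1 lower with CB-839 at 48 h, and 1 was higher in glutamine-free medium at 48 h. DESeq2 gave 2 lower with DON at 4 h, and 5 higher and 1 lower for the CB-839 interaction, and without the filter 1 was higher with DON at 24 h. With 1 library left out, 3 to 5 were lower in vehicle at 48 h against 24 h, 2 to 4 lower with CB-839 at 4 h, 1 to 2 higher with DON at 48 h, and 2 to 4 higher and 0 to 1 lower for the CB-839 interaction. The cause was not tested.

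At an IDR of 0.01 the members with an H3K27ac peak were 0 with vehicle, DON and in glutamine-free medium, and 0 had an H3K27me3 peak with DON. With a window of 2500 bases 2 had H3K27me3 with vehicle, and with a peak over most of the window required 1 had it with CB-839 and 1 with DON. Members at a few CPM (Aldoc, Bnip3, Ankrd37) have the widest errors. Shared exons, pseudogenes or near copies make the levels of Pgam1, Pgk1, Bnip3 and Eno1 uncertain. That of Gapdh is uncertain too, since copies not named after their gene were not counted for any member.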

Other observations

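With vehicle, the other genes of these pathways moved in both directions. Of 18 other glycolysis genes tested against unstimulated cells, 4 were higher and 11 lower at 4 h (33.9% and 41% of all genes), and 9 higher and 8 lower at 48 h (38.3% and 45.1%). Eno1b, a near copy of Eno1 (3.19 ± 0.11), the muscle enolase Eno3 (2.33 ± 0.10) and Pdk3 (1.82 ± 0.08) were higher at 48 h, and Pdk2 (-4.50 ± 0.20) was lower. Of 22 other HIF target genes tested, 9 were higher and 10 lower at 4 h, and 12 higher and 6 lower at 48 h, beside the same shares of all genes. Among them were Fam162a (2.54 ± 0.08), Car12 (2.65 ± 0.10), Ero1l, an oxidase of protein folding (2.24 ± 0.08), and the repressor Bhlhe40 (2.58 ± 0.09), all higher. Of the MondoA network, Mlxip (-1.26 ± 0.07), which encodes MondoA, and Arrdc4 (-1.75 ± 0.24) were lower at 48 h, as was Txnip.

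With CB-839 at 48 h, 0 of 16 other glycolysis genes were higher and 2 lower, and 3 of 21 other HIF target genes were higher and 1 lower, against 8.5% and 6.73% of all genes. With DON at 24 h, P4ha2 (-2.22 ± 0.18), Rcor2 (-1.43 ± 0.12) and Hilpda, a lipid droplet protein (-0.65 ± 0.06), were among 11 of 22 other HIF target genes that were lower, and 7 were higher (29.9% and 28.1% of all genes).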
